A study of Mus musculus with 8 samples.

Results

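The 10 genes described here act in the Wnt pathway. Wls encodes the Wnt carrier, and the others encode secreted proteins: the ligands Wnt4, Wnt5a, Wnt5b, Wnt7b and Wnt16, and the inhibitors Wif1, Dkk2, Dkk3 and Sfrp1. The genes were found by symbol among the 32285 features of single-nucleus RNA sequencing (snRNA-seq) count tables, and all 10 were present. The tables came from the petrous temporal bone (PTB), which houses the inner ear, and from the paraflocculus/flocculus (PF/F), the cerebellar lobules that sit in a pocket of that bone, of P5.5 mice. For each tissue there were 2 libraries from wild-type (WT) mice and 2 from Tbx1+/- littermates, which carry 1 inactive allele of the transcription factor Tbx1 in every cell. All mice were of C57BL/6J background, both sexes were used, and no other allele or treatment was described. Each library pooled tissue of 5 mice. The paper describes 2 batches of animals per genotype, the second processed as a separate experiment. The labels give only a replicate number, which is taken here as the batch. A library is thus a pool and not an animal.

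Wnt proteins are lipid-modified signals that act mostly over short distances. Wls carries them from the Golgi to the cell surface, where they engage Frizzled receptors, either with the co-receptors Lrp5 and Lrp6, which stabilises β-catenin, or with Ror and Ryk receptors, which act without it. Sfrp proteins and Wif1 bind Wnts outside the cell, whereas Dkk proteins of the Dkk2 type bind Lrp5 and Lrp6. Dkk3 is a diverged relative whose receptor is less clear. In the skeleton, β-catenin signalling favours osteoblasts over chondrocytes, Wnt5a and Wnt5b regulate growth-plate chondrocytes, and Wnt16 is linked to cortical bone mass. In the cerebellum, Wnts and their inhibitors are known from the rhombic lip, glia and granule cells.

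The deposited annotation placed 31076 PTB nuclei in 15 types and 48237 PF/F nuclei in 16 types. The 31076 are only a part of the bone nuclei that the paper kept. Immune cells other than osteoclasts and neurons, which the paper also annotated in bone, have no type here. Sums over all annotated PTB nuclei leave such cells out and are not the whole tissue. PTB types comprised 4 connective tissue types (CT1 to CT4), 6 chondrocyte progenitor types (CP1 to CP6), matured chondrocytes, hypertrophic chondrocytes/osteoblasts, osteoblasts, matured osteoblasts/osteocytes and osteoclasts. Libraries held 5981 to 9977 annotated PTB nuclei with a median of 3853 to 4758 unique molecular identifiers (UMIs) per nucleus, and 9153 to 13835 annotated PF/F nuclei with a median of 2610 to 3503. A type held 48 to 1865 nuclei per library in PTB and 12 to 5297 in PF/F, so values in small types rest on few UMIs. Annotated libraries of any pair shared 11 to 60 barcodes, at most 0.503% of the smaller library. Levels below are in CPM, the UMIs of a gene per 1000000 UMIs summed over the nuclei of a type in 1 library, and are listed in the order WT batch 1, Tbx1+/- batch 1, WT batch 2, Tbx1+/- batch 2. They are not length-normalised, so levels are compared between types and not between genes. The deposited counts are raw and hold free RNA, so osteoclasts in PTB and immune cells in PF/F served as background types. Immune cells are no such background for Wls, Wnt4 and Dkk2, which they held at 187, 14.0 and 24.2 CPM, above the 45.8, 5.56 and 2.88 CPM over all annotated PF/F nuclei, so for these genes immune cells are given only as another type. Likewise osteoclasts, at 15.0 CPM of Wnt4 and 2.16 CPM of Wnt7b, were level with the 15.1 and 2.09 CPM over all annotated PTB nuclei, and set no background for these 2 genes. In immune cells, 3 UMIs correspond to 6.36 to 13.45 CPM. Wnt16, Wif1 and Wnt7b lay below this there, at 1.72, 2.25 and 4.22 CPM, and Wnt5a and Wnt5b near its lower end, at 6.94 and 6.75 CPM. Comparisons of these genes with immune cells rest on few UMIs.

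The targeted gene Tbx1 stood at 38.9, 26.3, 39.4 and 35.7 CPM over all annotated PTB nuclei, lower in the Tbx1+/- library of each batch, and at 0.0949 to 0.265 CPM in PF/F. Such 3′ counts may also read transcripts of an altered allele, which was not examined, so they do not check the genotype. Defining markers are given here for some types only, and not for most of the CP types. Osteoclasts had 1356 CPM of Acp5 and 4606 of Ctsk, matured osteoblasts/osteocytes led Dmp1 at 1761 CPM, and CT1 led Col3a1 at 1693 CPM. Osteoblasts led the osteoblast markers Sp7, Alpl and Bglap, at 350, 644 and 925 CPM. Col1a1 was about level in osteoblasts and matured osteoblasts/osteocytes, at 9349 and 9352 CPM. The osteoblast marker Runx2 went against the labels, with its highest level in CP1 at 8806 CPM, against 4631 CPM in osteoblasts. The hypertrophic part of the hypertrophic chondrocyte/osteoblast label went against its markers. Col10a1 was at 42.4 ± 29.8 CPM and Ihh at 1.9 ± 1.5 CPM there (SD, n = 4), against 192 and 50.8 CPM in matured chondrocytes. Osteoblast markers were not read for this type. The label is used below only as the authors' name for a set of nuclei.

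Each gene had its own pattern over types. In PTB, Wls was highest in osteoblasts, Wif1 in the set annotated as hypertrophic chondrocytes/osteoblasts and Wnt5b in matured osteoblasts/osteocytes. Wnt5a was highest in the progenitor type CP3, Wnt4 and Sfrp1 had their highest means in CT2, and Dkk2 and Dkk3 were highest in CT1. These genes were not high in all connective tissue types. CT3 was the lowest PTB type for Wnt4 at 7.17 CPM, and CT4 for Sfrp1 at 8.16 CPM and Dkk2 at 6.91 CPM. Wnt16 had its highest mean in CT2, which did not differ beyond the spread from CP3. In PF/F, Wls and Wnt4 had their highest means in meningeal cells, Wnt5a was similar in meningeal cells and GABA interneuron progenitors, and Dkk3 was similar in astroglia and GABA interneuron progenitors. Wif1 was highest in astroglia, Wnt7b in GABA interneuron progenitors and Sfrp1 in granule neuron progenitors (GNP), and Wnt16 had its highest mean in Purkinje cells, which did not differ beyond the spread from meningeal cells. Nuclei were clustered on their own expression, so differences between types are descriptions and were not tested. Neighbouring types in an order are said to differ beyond their spread where the difference had the same sign in all 4 libraries and the means differed by more than the larger SD.

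**Figure D1:**
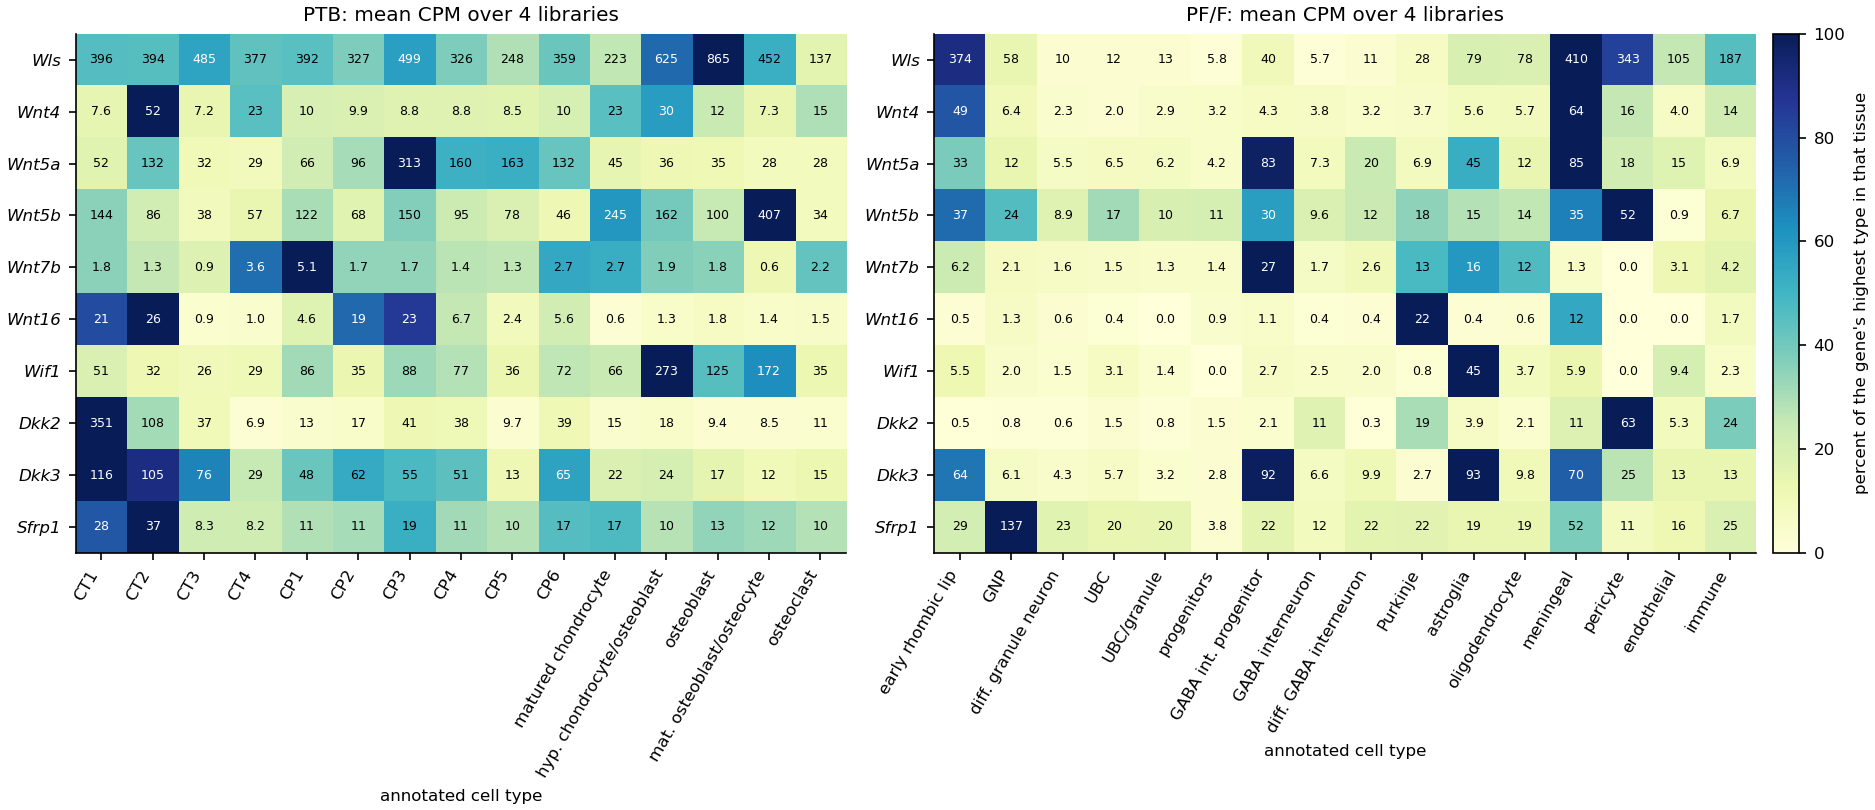
Mean level of each of the 10 genes (rows) in each annotated cell type (columns) of PTB and PF/F, over 4 libraries; numbers are CPM and colour is the percent of that gene's highest type in the tissue. In PTB the bright cells of the ligands and inhibitors fall in different columns, for example CP3 for Wnt5a at 313 CPM and CT1 for Dkk2 at 351 CPM.

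Wls lies on chromosome 3 (GRCm38, 159839672 to 159938664, plus strand). Its level in osteoblasts was 796, 867, 914 and 885 CPM, the highest of all PTB types in every library, with little difference between libraries. Hypertrophic chondrocytes/osteoblasts followed at 625, 601, 631 and 644 CPM, and CP3 at a mean of 499 ± 6.93 CPM. These neighbours differed beyond their spread. From CP3 down to CP6, at 359 CPM, 8 types formed a run in which no neighbours did. Matured chondrocytes, at 223 ± 31.5 CPM, were the lowest skeletal type, and osteoclasts lay below them at 137 ± 18.5 CPM. Wls was above osteoclasts in all 4 libraries in each of the 14 other types. Osteoblasts contributed 36.6 ± 5.9% of all Wls UMIs of annotated PTB nuclei with 20.9% of the UMIs of all genes.

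In PF/F, Wls was highest in meningeal cells, pericytes and the type annotated as early rhombic lip. In that type the granule lineage markers were below their GNP levels (Pax6 228 against 600 CPM, Neurod1 56.3 against 163 CPM and Barhl1 22.1 against 173 CPM). The astroglial gene Slc1a3 was at 533 CPM there, against 2318 CPM in astroglia. These values do not decide the label, and early rhombic lip is used only as the authors' name. Meningeal nuclei stood at 423, 386, 378 and 455 CPM and early rhombic lip nuclei at 357, 458, 408 and 272 CPM. Pericytes followed at 258, 256, 459 and 399 CPM, on 9 to 31 UMIs per library. These 3 types overlapped and did not differ beyond their spread. Immune cells came next at 187 ± 39.6 CPM and endothelial cells at 105 ± 25.8 CPM. Neurons were low, from 27.5 CPM in Purkinje cells to 10.1 CPM in differentiated granule neurons and 5.71 CPM in GABA interneurons. Only meningeal, early rhombic lip and pericyte nuclei exceeded immune cells in all 4 libraries. Over all annotated nuclei, Wls was at 494 ± 22.2 CPM in PTB and 45.8 ± 1.7 CPM in PF/F, a ratio of 10.8.

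RefSeq promoter windows of GRCm38.p6 (250 bases before to 50 after a transcript start) were available for 6 of the 10 genes. The 100 bases before the start, written 5′ to 3′ on the gene's strand, are shown for 4 of these genes, with the type where each was highest: Wls in osteoblasts (chr3:159839550-159839649, plus strand), Wif1 in hypertrophic chondrocytes/osteoblasts (chr10:121033904-121034003, plus strand), Wnt5b in matured osteoblasts/osteocytes (chr6:119449387-119449486, minus strand, 1 of 3 starts) and Dkk2 in CT1 (chr3:132085192-132085291, plus strand). Capitals mark a motif found by letters.
Wls: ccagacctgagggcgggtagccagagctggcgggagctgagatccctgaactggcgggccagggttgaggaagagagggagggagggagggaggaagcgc
Wif1: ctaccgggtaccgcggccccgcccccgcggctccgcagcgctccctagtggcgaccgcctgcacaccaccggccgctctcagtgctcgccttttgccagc
Wnt5b: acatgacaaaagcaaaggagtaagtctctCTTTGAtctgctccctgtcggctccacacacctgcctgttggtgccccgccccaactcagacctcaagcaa
Dkk2: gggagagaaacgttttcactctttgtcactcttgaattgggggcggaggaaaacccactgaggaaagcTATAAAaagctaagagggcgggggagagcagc

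The windows were searched on both strands for 5 short motifs: TGTGGT of Runx factors, CTTTGA of the β-catenin partners Tcf and Lef, the TATA element TATAAA, the Sox factor motif ACAATGG and CATTCC of Tead factors. They occur by letters in 16.8%, 16%, 13.6%, 3.66% and 14.7% of the 32851 mouse windows of that length. The Dkk2 window holds TATAAA starting 32 bases before the start, and Wif1 holds it on the opposite strand 232 bases before. The shown Wnt5b window holds CTTTGA 71 bases before the start, and another of its 3 windows holds CATTCC 13 bases after. The windows of Wls, Wnt4 and Wnt16 hold none of the 5. Such matches are descriptions of letters and not of bound sites.

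Wnt5a (chromosome 14, 28504750 to 28527448, plus strand) encodes the prototype of the ligands that act mainly without β-catenin. In CP3 it stood at 352, 340, 307 and 252 CPM, above every other PTB type in every library. CP5 at 163 CPM, CP4 at 160 CPM, CT2 at 132 CPM and CP6 at 132 CPM formed the next group, within which neighbours did not differ beyond their spread. CP2 and CP1 lay lower at 95.6 and 66.2 CPM. The 3 types with osteoblast in their label, at 27.6 to 35.8 CPM, were close to osteoclasts at 27.9 ± 10.5 CPM. CP3 gave 17.8 ± 3.6% of the Wnt5a UMIs with 4.5% of all UMIs. In PF/F, meningeal cells at 72.0, 116, 73.3 and 78.1 CPM and GABA interneuron progenitors at 82.6, 89.4, 74.4 and 84.3 CPM did not differ beyond their spread. Meningeal cells were the higher of these in 1 of 4 libraries, and without that library, the Tbx1+/- library of batch 1, their mean was 74.5 CPM. Astroglia followed at 44.7 ± 3.16 CPM, and immune cells had 6.94 CPM.

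Wnt5b (chromosome 6, 119432531 to 119544347, minus strand), a close relative of Wnt5a known from chondrocyte maturation, was highest in a type where Wnt5a was close to its osteoclast level. Matured osteoblasts/osteocytes stood at 383, 381, 488 and 375 CPM. Matured chondrocytes followed at 288, 210, 148 and 335 CPM and varied most between libraries, with the WT library of batch 2 lowest. Hypertrophic chondrocytes/osteoblasts, CP3, CT1 and CP1 ranged from 162 down to 122 CPM, and osteoclasts were at 34.0 CPM. Wnt5b exceeded osteoclasts in all 4 libraries in 13 of 14 types. In PF/F, the highest mean was in pericytes, 52.3 ± 27.7 CPM, but on 2 or 3 UMIs per library, where 3 UMIs correspond to 44.4 to 86.1 CPM. Early rhombic lip at 37.5 CPM, meningeal cells at 34.8 CPM and GABA interneuron progenitors at 30.4 CPM followed, with no neighbours that differed beyond their spread. GNP, at 24.3 ± 2.1 CPM, differed beyond the spread from Purkinje cells at 18.2 CPM.

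Wnt4 (chromosome 4, 137277489 to 137299726, plus strand), a ligand best known from kidney and gonad development, was highest in CT2 at 55.6, 30.3, 46.0 and 74.7 CPM, on 43 to 99 UMIs. The libraries of batch 1 and batch 2 ordered the genotypes in opposite ways. Hypertrophic chondrocytes/osteoblasts at 30.1 ± 4.49 CPM, CT4 at 23.4 CPM and matured chondrocytes at 23.4 CPM were the other types above osteoclasts, which had 15.0 ± 4.87 CPM, in every library. The remaining 10 types, from 12.49 CPM down to 7.17 CPM in CT3, had means below the osteoclast level. In PF/F, Wnt4 shared its upper types with Wls. It stood at 50.4, 66.3, 73.3 and 65.7 CPM in meningeal cells and at 49.3 ± 6.8 CPM in early rhombic lip, both above the 14.0 CPM of immune cells in every library. All other PF/F types had means of 16.4 CPM or less.

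Wnt16 (chromosome 6, 22288227 to 22298522, plus strand) was highest in connective tissue and progenitor types. CT2 had 19.1, 20.4, 34.7 and 30.9 CPM, CP3 22.6 CPM on average, CT1 21.6, 27.6, 33.1 and 2.12 CPM, and CP2 19.0 CPM. Neighbours in this group of 4 did not differ beyond their spread, and the low CT1 value of the Tbx1+/- library of batch 2 rests on 1 UMI in 118 nuclei. CP4 followed at 6.68 CPM and the 3 types with osteoblast in their label had 1.29 to 1.78 CPM, against 1.53 CPM in osteoclasts. In PF/F, Purkinje cells stood at 17.7, 28.8, 20.7 and 20.3 CPM. They were the only type above immune cells in all 4 libraries, a comparison that rests on few immune UMIs. Purkinje cells held 59.3 ± 15.0% of Wnt16 UMIs with 5.4% of all UMIs. Meningeal cells had 18.0, 18.9, 1.98 and 8.68 CPM, did not differ from Purkinje cells beyond the spread and were the higher in the WT library of batch 1. Every other type had a mean of at most 1.72 CPM.

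Wnt7b (chromosome 15, 85535437 to 85582473, minus strand), a ligand known from brain vessels and bone formation, was the one ligand higher in PF/F over annotated nuclei. In PTB, CP1 had 5.61, 4.98, 3.44 and 6.20 CPM on 9 to 23 UMIs. No neighbours in the PTB order differed beyond their spread, and CP1 was the only type above osteoclasts in every library. In PF/F, GABA interneuron progenitors stood at 34.1, 18.2, 26.1 and 27.7 CPM, followed by astroglia at 15.9 ± 1.06 CPM, Purkinje cells at 12.8 CPM and oligodendrocytes at 12.4 CPM. These 4 types exceeded immune cells, at 4.22 CPM on few UMIs, in every library. Astroglia gave 41.0 ± 4.8% of all Wnt7b UMIs. Over all annotated nuclei Wnt7b was 2.87 times higher in PF/F than in PTB. That ratio leaves out PTB barcodes outside the annotated types, which held Wnt7b at 10.2 CPM.

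**Figure D2:**
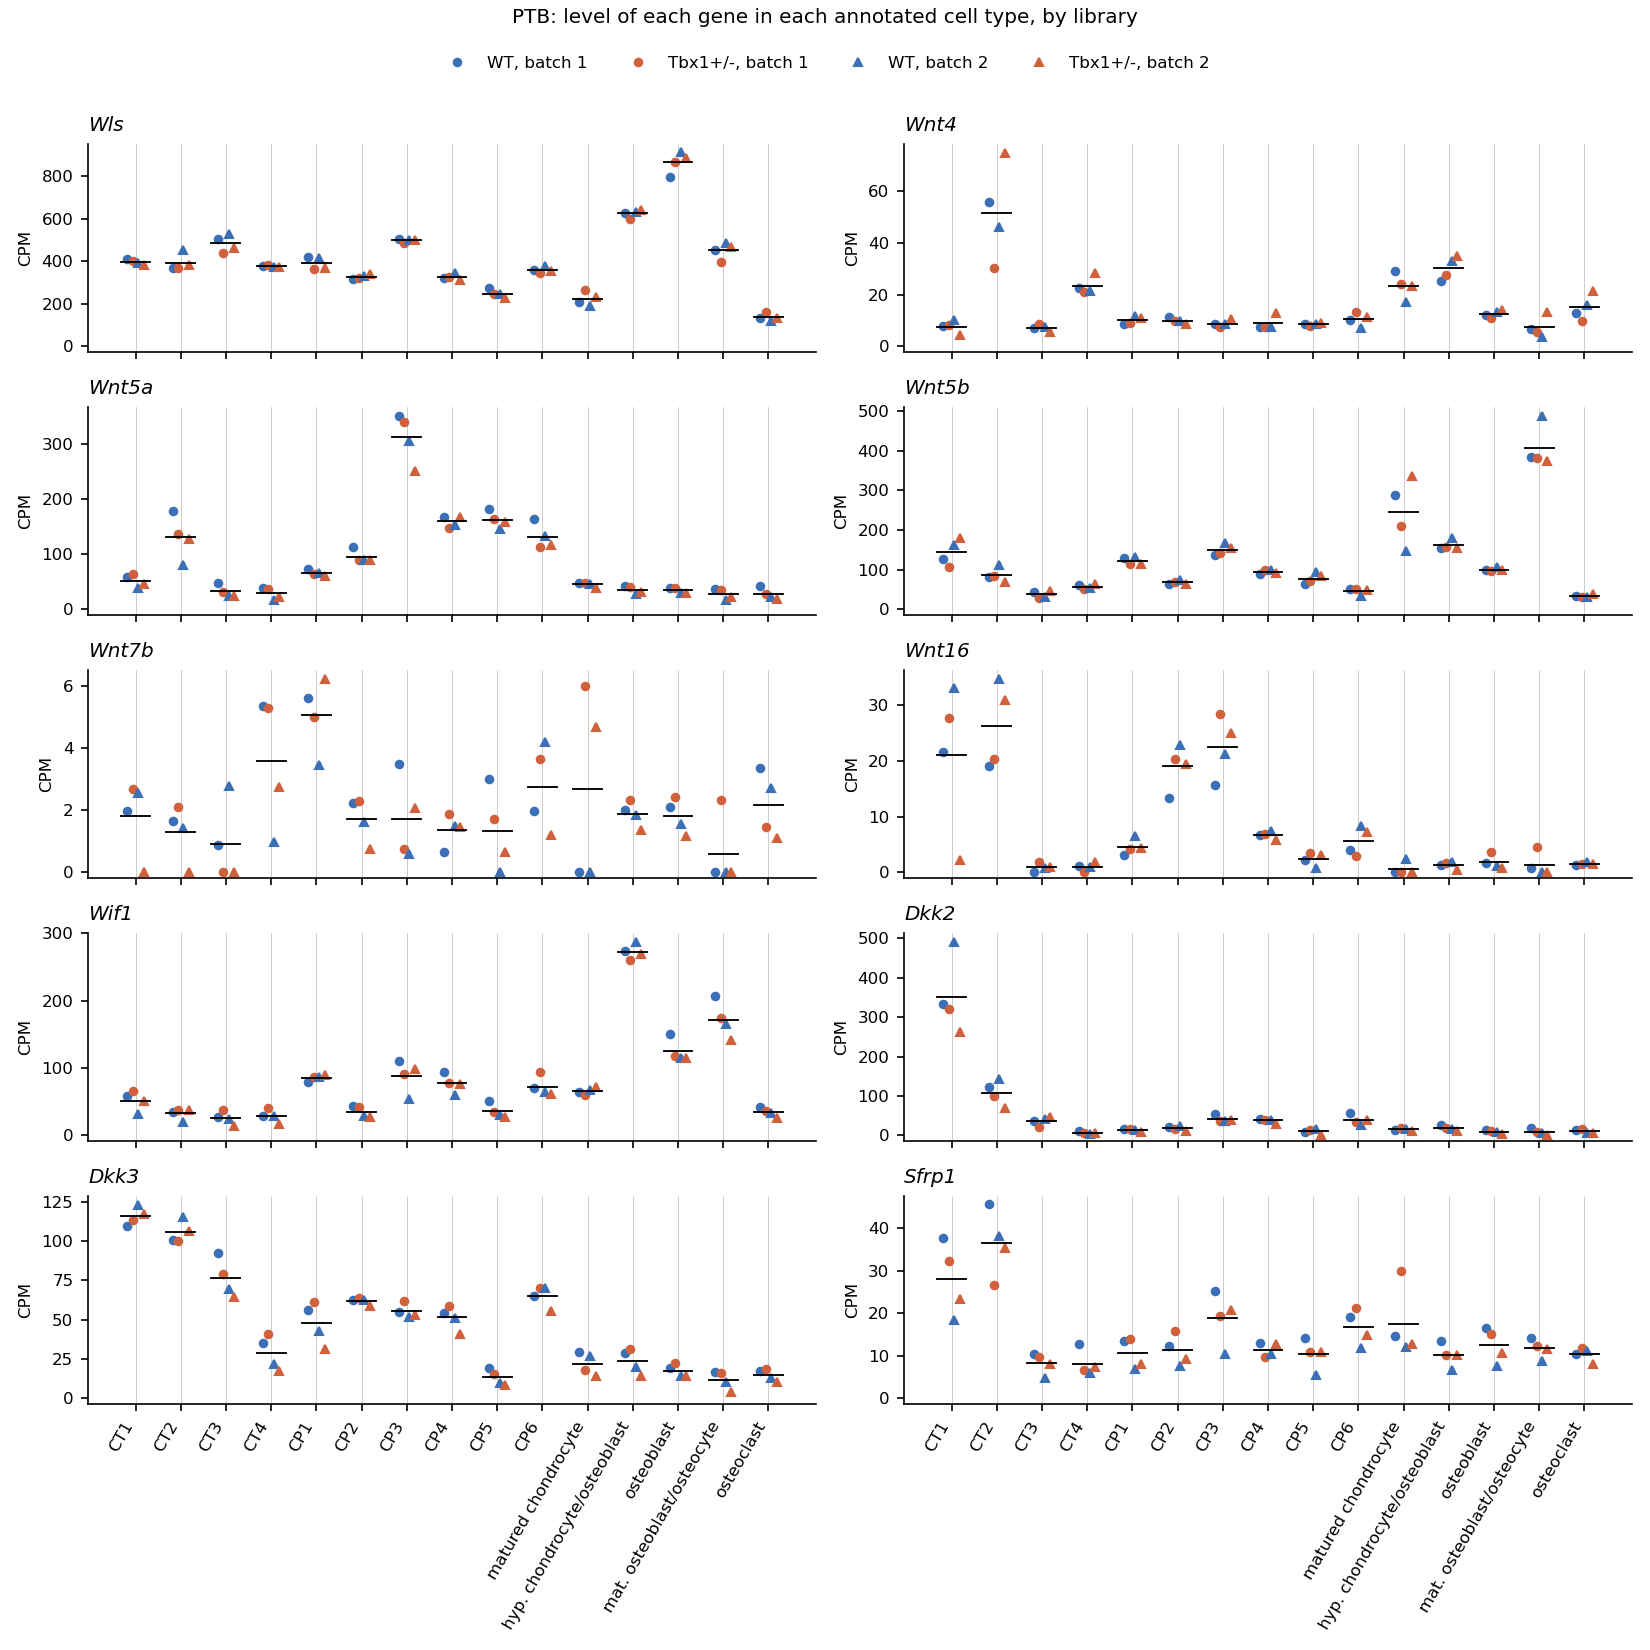
Level (CPM) of each of the 10 genes in each annotated PTB cell type, with 1 point per library: WT and Tbx1+/- of batches 1 and 2. Points of the 4 libraries lie close together in the highest type of Wls (796 to 914 CPM) and Dkk3 (109 to 123 CPM) and lie wider in that of Dkk2 (261 to 490 CPM).

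Wif1 (chromosome 10, 121033960 to 121100650, plus strand), a secreted protein that binds Wnts directly, was highest in 3 sets of nuclei that the authors named with osteoblasts. The first of them had less of the hypertrophic markers than matured chondrocytes, as given above. Hypertrophic chondrocytes/osteoblasts had 274, 260, 287 and 270 CPM, matured osteoblasts/osteocytes 207, 174, 165 and 142 CPM, and osteoblasts 125 ± 17.2 CPM. Each of these neighbours differed beyond the spread, and CP3 came next at 88.4 CPM. Connective tissue types CT2, CT3 and CT4, at 25.7 to 32.4 CPM, had means below the 34.7 ± 6.7 CPM of osteoclasts. Hypertrophic chondrocytes/osteoblasts gave 36.0 ± 3.1% of Wif1 UMIs with 13.3% of all UMIs. In PF/F, Wif1 was an astroglial gene, with 34.4, 44.7, 54.2 and 48.4 CPM in astroglia and 80.2 ± 1.4% of its UMIs there, from 15.3% of all UMIs. The other types had means of at most 9.4 CPM, and pericytes and the type annotated as progenitors had no Wif1 UMI.

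Dkk2 (chromosome 3, 132085292 to 132180304, plus strand), which binds the Wnt co-receptors Lrp5 and Lrp6, was concentrated in connective tissue. CT1 stood at 333, 321, 490 and 261 CPM, from 1697, 1080, 770 and 123 UMIs, and CT2 at 124, 98.5, 142 and 69.4 CPM. Both types were lower in the Tbx1+/- library of each batch. CP3, CP6, CP4 and CT3 followed at 37.0 to 40.9 CPM, and CT4 was the lowest of all types at 6.91 CPM, against 6.20 to 16.9 CPM in osteoclasts. The connective tissue types thus ran from the highest Dkk2 level of PTB down to the background level. CT1 gave 47.5 ± 19.2% of Dkk2 UMIs with 6.5% of all UMIs. In PF/F, pericytes had the highest mean at 63.4 ± 24.3 CPM on 2 to 5 UMIs per library, and 0 CPM when only nuclei with at least 2000 detected genes were summed. Purkinje cells at 16.2, 17.9, 23.1 and 19.4 CPM held 36.3 ± 8.6% of PF/F Dkk2 UMIs from 5.4% of all UMIs. Immune cells stood beside them at 24.2 ± 13.7 CPM and held 6.10 ± 3.50% of these UMIs from 0.725% of all UMIs.

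Dkk3 (chromosome 7, 112116017 to 112159057, minus strand) followed Dkk2 in its upper PTB types with a flatter decline. CT1 had 109, 113, 123 and 117 CPM, CT2 105 ± 7.15 CPM and CT3 76.2 ± 12.3 CPM. CP6 and CP2 stood at 65.2 and 61.9 CPM, while matured osteoblasts/osteocytes were lowest at 11.8 CPM, against 14.7 CPM in osteoclasts. In PF/F, astroglia at 89.1, 96.2, 100.3 and 88.1 CPM and GABA interneuron progenitors at 91.9 ± 8.77 CPM did not differ beyond their spread. Meningeal cells at 69.8 CPM and early rhombic lip at 64.4 CPM formed the next level, and Purkinje cells were lowest at 2.67 CPM. Astroglia gave 59.3 ± 1.8% of the Dkk3 UMIs.

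Sfrp1 (chromosome 8, 23411502 to 23449632, plus strand), a secreted protein with a Frizzled-like domain that binds Wnts, was low in the annotated PTB types and high in GNP. CT2 stood at 45.6, 26.7, 38.2 and 35.5 CPM and did not differ beyond the spread from CT1 at 28.0 ± 8.66 CPM. Only 4 of 14 PTB types exceeded the 10.4 CPM of osteoclasts in all 4 libraries, and CT4 was the lowest type at 8.16 CPM. In PF/F, GNP had 136, 160, 119 and 135 CPM and gave 53.8 ± 3.1% of Sfrp1 UMIs from 15.6% of all UMIs. Meningeal cells followed at 52.4 ± 7.18 CPM. Differentiated granule neurons, the progeny of GNP, were at 22.7 ± 3.86 CPM, close to immune cells at 25.5 CPM. Over all annotated nuclei Sfrp1 was 2.89 times higher in PF/F than in PTB, the other gene besides Wnt7b with a higher level there.

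**Figure D3:**
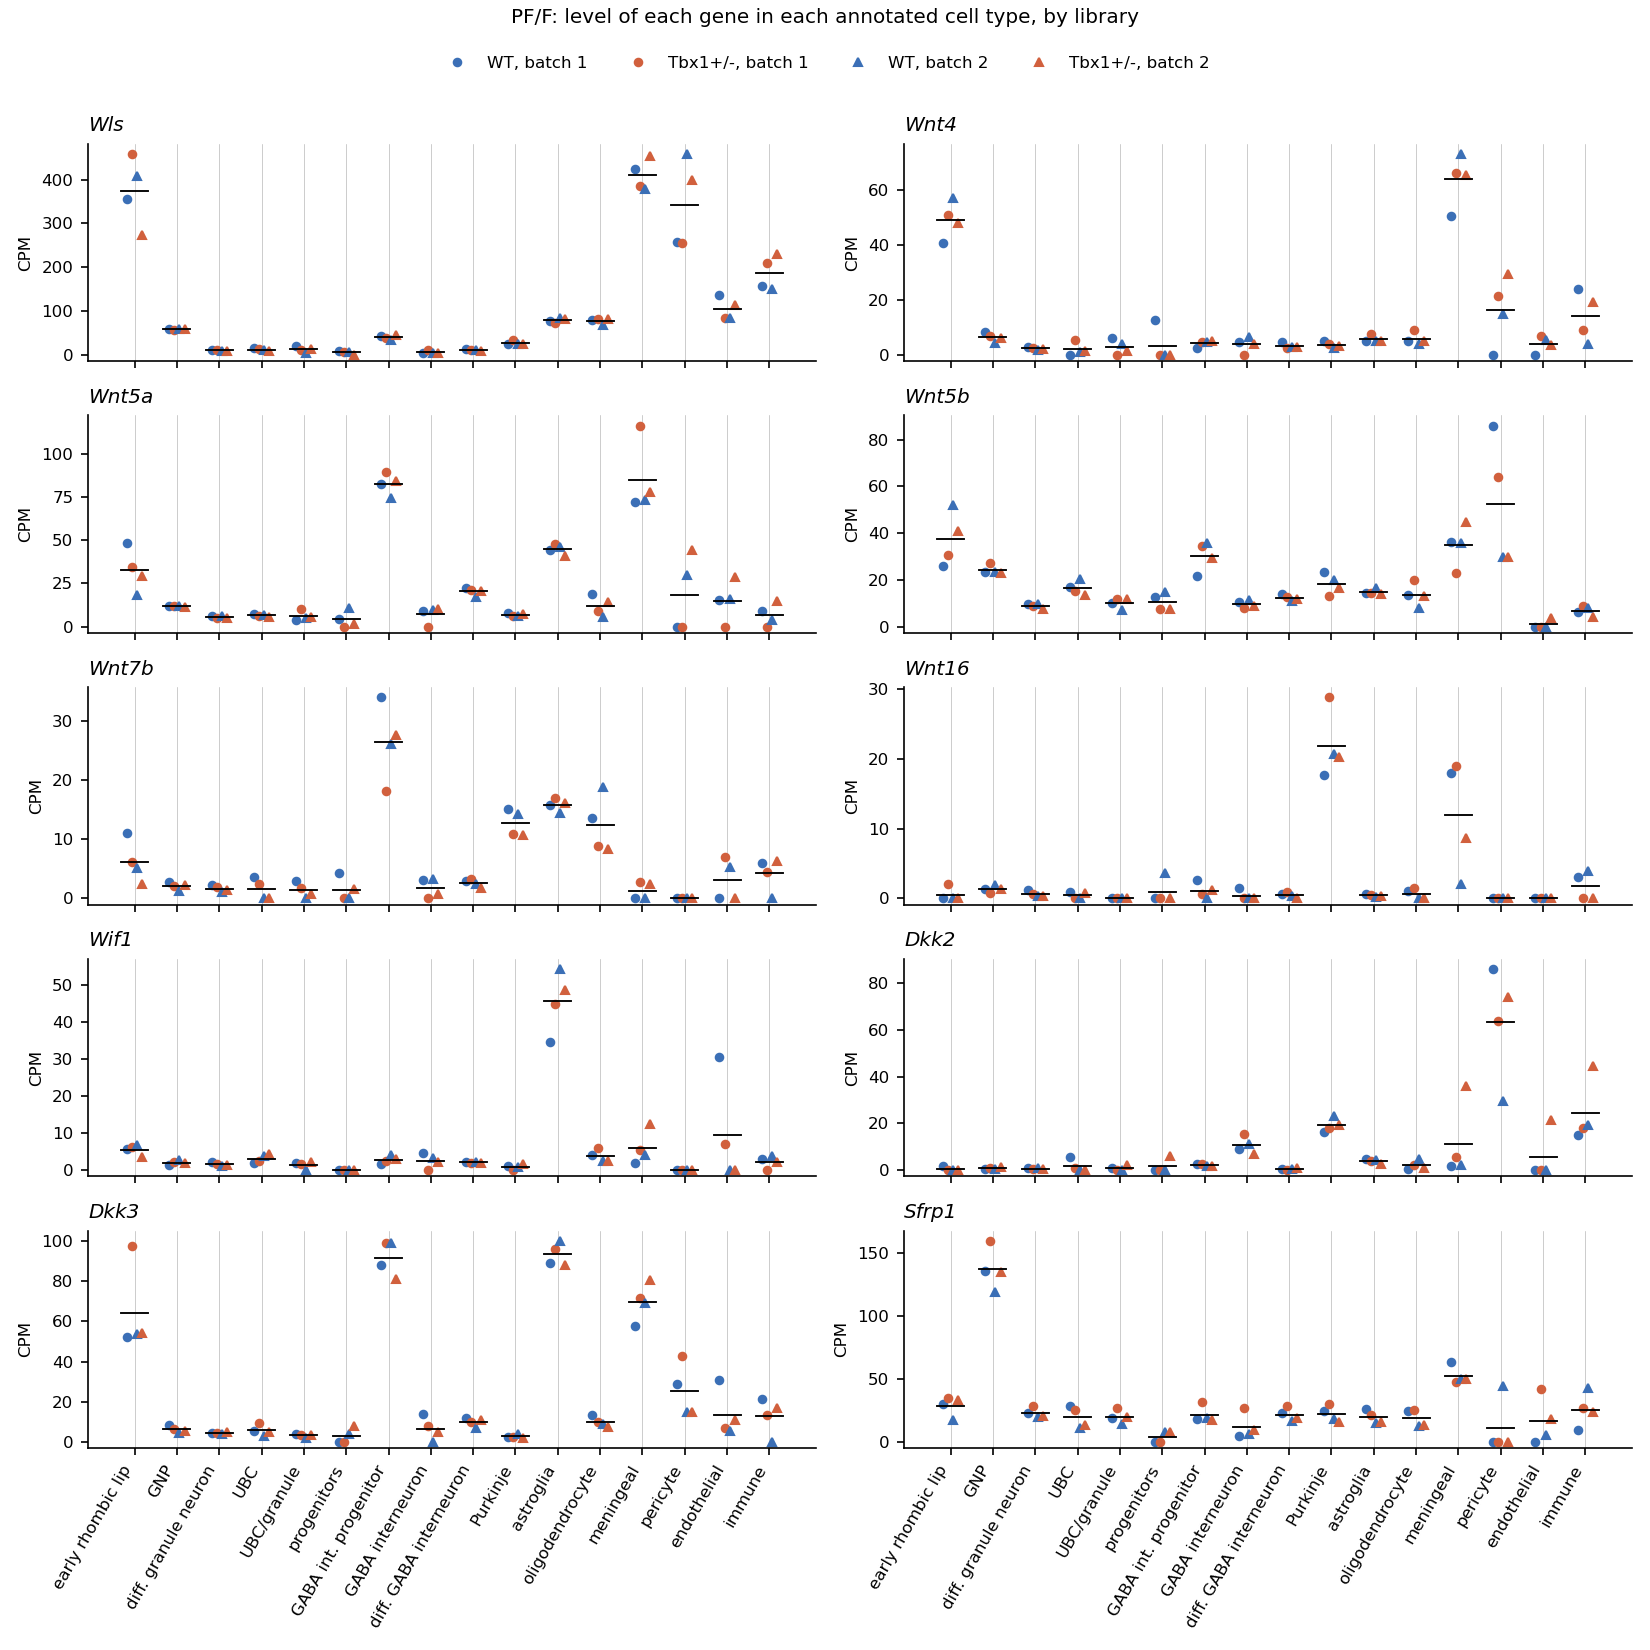
Level (CPM) of each of the 10 genes in each annotated PF/F cell type, with 1 point per library: WT and Tbx1+/- of batches 1 and 2. The 4 libraries lie together for Wif1 in astroglia (34.4 to 54.2 CPM) and Sfrp1 in GNP (119 to 160 CPM), and scatter in pericytes, which held 12 to 25 nuclei per library.

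Wls, Wnt4, Wnt5a, Wnt5b, Wnt16, Wif1, Dkk2 and Dkk3 were higher in PTB over all annotated nuclei, by ratios from 1.76 for Dkk3 and 2.72 for Wnt4 to 11.8 for Wif1 and 15.0 for Dkk2. Bone was pulverised before nuclei were isolated and PF/F was not, so tissue and isolation cannot be told apart, and these ratios were not tested. All such ratios, also those of Wnt7b and Sfrp1, leave out barcodes outside the annotated types. In PTB these barcodes held Wnt7b at 10.2 and Sfrp1 at 35.9 CPM, above the 2.09 and 13.8 CPM of annotated nuclei. In PF/F they held 5.19 and 33.9 CPM, against 5.99 and 40.0 CPM.

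The share of nuclei with at least 1 UMI, after each nucleus was thinned to 2000 UMIs and shallower nuclei were left out, gave the same picture for the abundant genes. Wls was found in 70.7% of osteoblasts and 19.9% of osteoclasts (87.5% and 42.1% before thinning), with median depths of 4340 to 5356 and 4963 to 7105 UMIs. Wnt5a was found in 42.9% of CP3 nuclei against 4.94% of osteoclasts, and Wnt5b in 47.25% of matured osteoblasts/osteocytes against 5.07%. Wif1 was found in 32.3% of hypertrophic chondrocytes/osteoblasts against 6.04%, Dkk2 in 18.6% of CT1 against 1.73%, and Dkk3 in 18.4% of CT1 against 2.49%. Wnt7b was found in 0.92% of CP1 nuclei and 0.5% of osteoclasts. In PF/F, Wls was found in 54.5% of meningeal nuclei and 30.2% of immune cells, which held Wls above the tissue's mean level. Against immune cells as background, shares were higher for Wif1 in astroglia at 8.03% against 0.54%, for Wnt16 in Purkinje cells at 4.03% against 0.25%, and for Sfrp1 in GNP at 21.8% against 4.61%.

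The 3 genes whose level followed each member most closely over types, by Pearson's r of log2(CPM + 1) of the type means, were taken in the tissue of its highest type. These r describe 15 PTB or 16 PF/F types from shared libraries, over 13126 or 15731 genes, and carry no p. In PTB, Wnt5a was followed by Glrb (r = 0.976), Eva1c (0.972) and Gm36363 (0.964), and Dkk3 by Csrp2 (0.932), the ligand Wnt9a (0.921) and Mfap4 (0.910). Wif1 was followed by Gucy1a1 (0.921), Lemd3 (0.916) and Lifr (0.857). Lemd3 is annotated near Wif1 on chromosome 10, on the opposite strand. Dkk2 was followed by Frem1 (0.918), Plekha4 (0.908) and Rarres2 (0.894), and Wnt16 by Tmeff2 (0.914), Dpp4 (0.899) and the connective tissue gene Dcn (0.893). Values were lower for Wnt5b, with Tpbg (0.855), Fbxo25 (0.849) and Ypel3 (0.848), and for Wls, with Cdc73 (0.842), Abi2 (0.839) and Fign (0.831). In PF/F, Wnt4 was followed by Acad12 (0.897), Aebp1 (0.896) and 4930533K18Rik (0.887), Sfrp1 by Ino80e (0.890), Ndst1 (0.861) and Hikeshi (0.856), and Wnt7b by Gm39323 (0.880), Ntsr2 (0.846) and Grin3a (0.844). Among the members themselves, Wnt5a and Dkk3 (0.929) and Wls and Wnt4 (0.855) were most alike in PF/F, and Dkk2 and Dkk3 (0.830) in PTB.

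The design compares Tbx1+/- with WT mice within each type. UMIs were summed per library and type, and edgeR's quasi-likelihood test was run over all genes of a type. A gene was called at an adjusted p under 0.05 and a change above 1.5-fold. No member was called in PTB. Of 125 member-by-type tests, 0 passed, 44 were higher and 81 lower in Tbx1+/-, and the median log2 change was -0.05. This imbalance varied with the library left out. Without the WT library of batch 1 the split was 63 higher and 63 lower, and without that of batch 2 37 higher and 92 lower. Without the Tbx1+/- library of batch 1 it was 41 higher and 87 lower, and without that of batch 2 56 higher and 73 lower. With all libraries, the background was 0% of 187198 tests over all genes. Without adjustment, 2 of the 125 tests (1.6%, against 1.81% of all tests) had p under 0.05, both for Dkk2. DESeq2 called 0 as well, with 1 at an unadjusted p under 0.05, against 0% and 0.285% of all tests. With the batch as a block edgeR again called 0 members, with 6 at an unadjusted p under 0.05, against a background of 0.0379% called and 3.93% under 0.05. Adjusted p over the members ran from 0.999 to 1 without the block and from 0.507 to 1 with it.

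No member was called in PF/F either, with 0 of 72 tests, 37 higher and 35 lower. The background was 0.000598%, 1 gene in 167207 tests, which was Ttr in Purkinje cells. Of the members, 2 of 72 tests had an unadjusted p under 0.05, against 1.32% of all tests, and DESeq2 had 0 called and 0 under 0.05, against 0.0012% and 0.115% of all tests. Without a filter on low counts, 1 member was called, against 0.0112%, which was Dkk2 in meningeal cells, where the Tbx1+/- library of batch 2 at 35.95 CPM stood far above the other 3 at 1.80 to 5.41 CPM. With the block, 0 were called and 5 were under 0.05, against 0.0359% and 4.28% of all tests. In sums over all annotated nuclei, 0 of 10 members were called in PTB and 0 of 10 in PF/F, against a background of 0% in each, and the tissue-by-genotype interaction called 0 of 10 against 0%. Unadjusted p under 0.05 was found for 0 members in each of these 3 comparisons by edgeR, against 1.07%, 0.477% and 0.899% of all genes, and by DESeq2, which called 0 too, against 0.568%, 0.14% and 0.456%. With the block edgeR called 0 members in each, against 0% of all genes, and 1 of 10 members in each was under 0.05, Dkk2 in PTB, Sfrp1 in PF/F and Dkk2 in the interaction, against 5.15%, 3.02% and 3.67% of all genes. Fewer cells of a type and less RNA per cell cannot be told apart in those sums. For scale, in simulated counts a change of 1 log2 unit was given to 200 genes. In PTB it was called for 54% of them in osteoblasts (15535 genes tested) and 27.5% in CT1 (13535). In PF/F it was called for 61.5% in differentiated granule neurons (17052) and 4% in meningeal cells (9882). Simulated libraries varied independently, whereas real libraries with the same replicate number deviated together. The shares called in the simulation therefore need not hold for the real counts. For a single value, 2 libraries against 2 cannot go below an exact two-sided permutation p of 0.33.

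**Figure D4:**
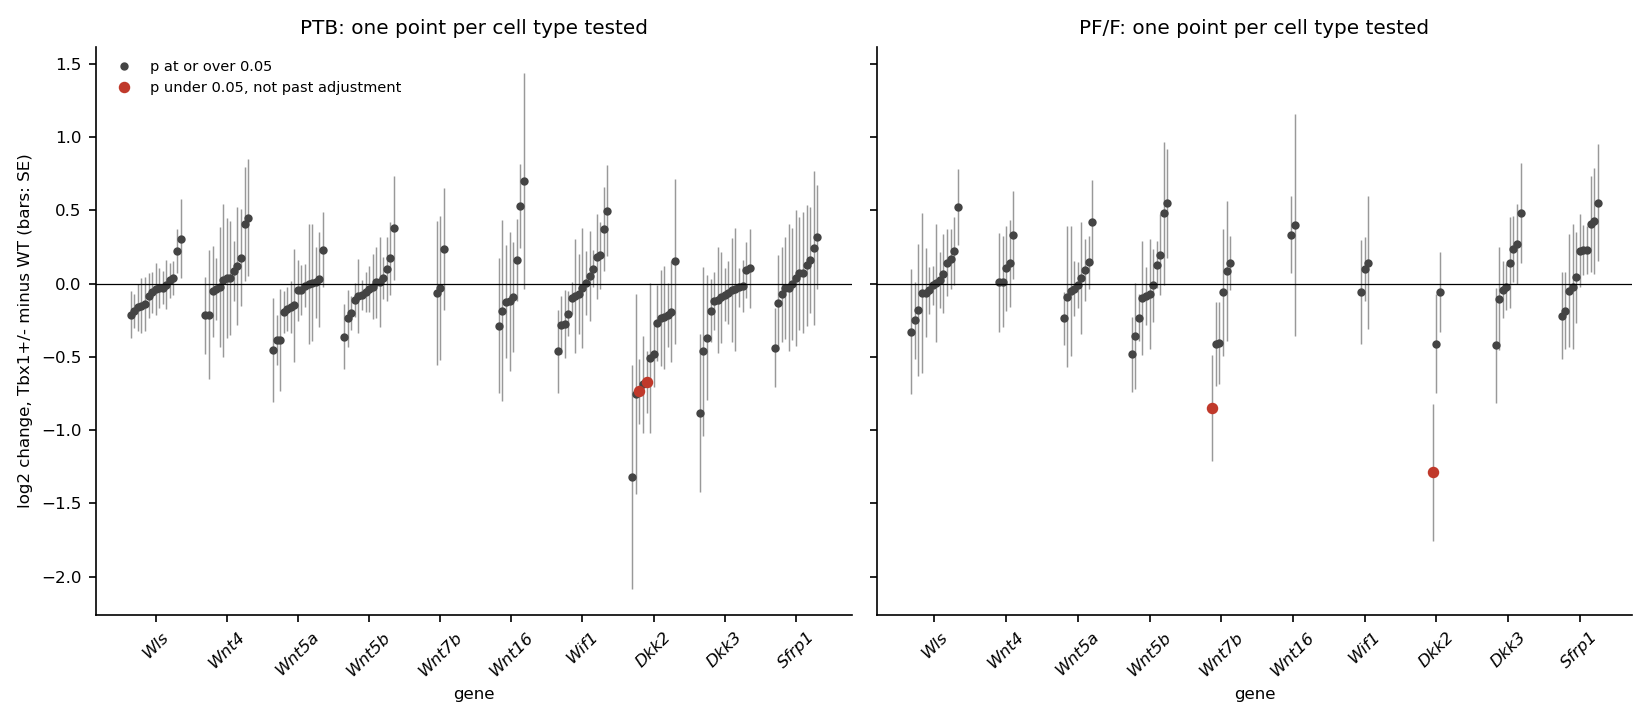
Log2 change (Tbx1+/- minus WT) with SE from edgeR for each of the 10 genes in each type tested, PTB left and PF/F right, 1 point per type. Dkk2 lies below 0 in 12 of 13 PTB types; red points had an unadjusted p under 0.05 and did not pass adjustment.

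Among the inhibitors, Dkk2 had the lowest p in PTB. In CT2, at the levels given above, the log2 change was -0.67 with an SE of 0.21 (adjusted p = 1.00), and every WT library was above every Tbx1+/- library. In CP2 the libraries stood at 21.0, 14.8, 22.4 and 11.1 CPM, with a change of -0.74 (SE 0.22), and the genotypes again did not overlap. In the Tbx1+/- library of batch 1, CP2 lay below osteoclasts, which had 16.9 CPM. In CT1, its highest type, the change was -0.48 (SE 0.22). Dkk2 was lower in Tbx1+/- in 12 of 13 types tested, with a median log2 change of -0.48. The median of all member tests was -0.05, and the medians over all genes of a type lay between -0.01 and 0.01. Dkk2 exceeded osteoclasts in all 4 libraries in only 7 of the 14 other types, so the 12 include types at the background level. Of the 746 genes tested in as many PTB types, 4.56% were lower in at least 12, and 1.07% had a median as low. Types of the same 4 libraries are not independent, and Dkk2 is singled out here for its p. Left out in turn, the Tbx1+/- library of batch 2, with the fewest CT1 nuclei, gave 10 of 14 types lower and a median of -0.35, and the Tbx1+/- library of batch 1 gave 13 of 14 and -0.76. Without the WT library of batch 1 these were 10 of 13 and -0.30, and without that of batch 2 14 of 14 and -0.53. With the batch as a block, the smallest adjusted p was 0.507 in CT2, so no type passed.

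The number of CT1 nuclei and the background varied beside Dkk2. CT1 made up 13.2%, 10.1%, 5.55% and 1.84% of annotated PTB nuclei in the 4 libraries, lower in the Tbx1+/- library of each batch. Over all annotated nuclei Dkk2 was at 62.9, 45.9, 45.3 and 18.1 CPM, a change of -0.76 (SE 0.44). The Tbx1+/- library of batch 2 was lowest and that of batch 1 was near the WT library of batch 2. With the block, this change was -0.88 (adjusted p = 0.899). Outside CT1, Dkk2 was at 27.3, 21.0, 23.4 and 14.8 CPM, lower in the Tbx1+/- library of each batch. That sum mixes types whose shares also differed, such as hypertrophic chondrocytes/osteoblasts at 12.6%, 15.4%, 11.7% and 15.7% of annotated nuclei. The part of cell type shares in these Dkk2 values was not tested. In osteoclasts, where Dkk2 gives the background, it was at 14.6, 16.9, 6.20 and 6.26 CPM, and the summed connective tissue markers Col3a1, Vcan and Dcn there were at 798, 616, 286 and 278 CPM. In osteoclasts both values differed more between batches than between genotypes. The erythroid genes Hba-a1 and Hbb-bs, summed over all annotated PTB nuclei, were at 664, 469, 457 and 315 CPM, in the same order of libraries as Dkk2 and lower in the Tbx1+/- library of each batch. The 3 neuron markers were also lower in each batch, at 159, 127, 162 and 145 CPM, whereas muscle and epithelium markers moved in opposite ways in the 2 batches. Glia markers, at 207, 292, 128 and 153 CPM, endothelial markers, at 52.5, 63.7, 53.4 and 54.3 CPM, and immune markers, at 75.2, 83.6, 76.0 and 84.0 CPM, were higher in the Tbx1+/- library of each batch. Annotated types held some of these markers, with the neuron marker Syt1 at 1625 CPM in CP6. Osteoclasts held the muscle gene Ttn at 758 CPM and the immune markers Csf1r and Ptprc at 513 and 253 CPM. The sums therefore do not measure other cells alone. The part of RNA from other cells in the Dkk2 values was not tested.

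**Figure D5:**
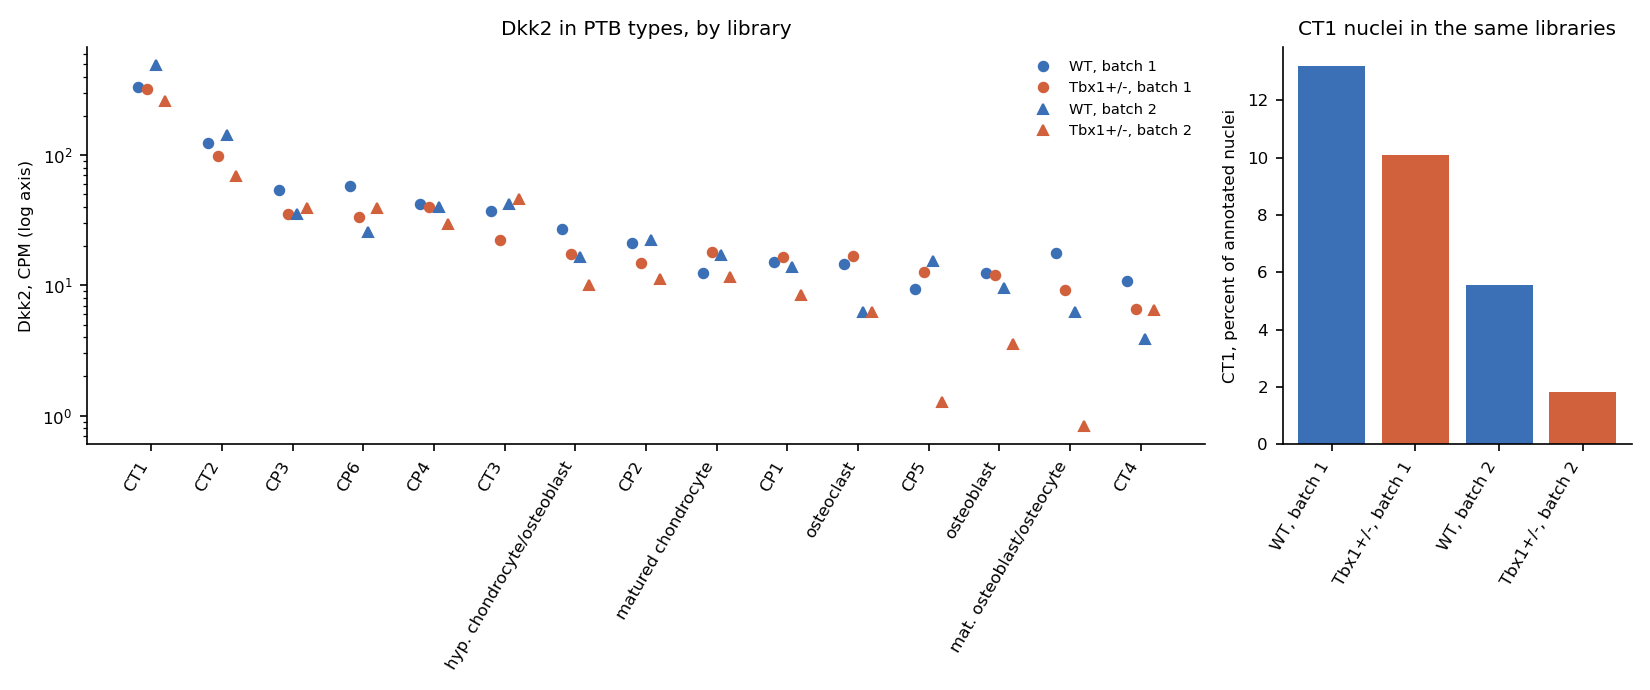
Left, Dkk2 level (CPM, log axis) in each PTB type, 1 point per library; right, the percent of annotated PTB nuclei in CT1 in the same 4 libraries. In CT1 and CT2 the Tbx1+/- point lies below the WT point of its batch, and the CT1 share falls from 13.2% in the WT library of batch 1 to 1.84% in the Tbx1+/- library of batch 2.

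Of the other inhibitors, no change passed adjustment, and differences below are log2 changes, Tbx1+/- minus WT. In PTB, Wif1 differed by -0.10 in hypertrophic chondrocytes/osteoblasts (SE 0.11) and by -0.46 in CP5 (SE 0.28). Dkk3 differed by -0.02 in CT1 (SE 0.18), and in matured chondrocytes it stood at 29.2, 18.0, 26.7 and 14.0 CPM (-0.88, SE 0.54). Dkk3 was lower in 13 of 15 types but with a median log2 change of -0.07. Sfrp1 differed by -0.44 in CT2 (SE 0.27) and was higher in 8 of 13 types. In PF/F, Wif1 and Dkk3 differed in astroglia by 0.10 (SE 0.22) and -0.02 (SE 0.16). Sfrp1 in GNP differed by 0.23 (SE 0.17), higher in the Tbx1+/- library of each batch. Its smallest p was in early rhombic lip (0.55, SE 0.40), as was that of Dkk3 (0.48, SE 0.34). Dkk2 in differentiated granule neurons was at 0.696, 0.393, 0.930 and 0.265 CPM (-1.29, SE 0.47), below the 2.88 CPM over all annotated nuclei. Dkk2 and Wnt5b in pericytes were too sparse to be tested.

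For Wls and the ligands, no log2 change passed either. Wls in osteoblasts differed by 0.02 (SE 0.12), the smallest p in PTB was for CP1 (-0.18, SE 0.11), and 11 of 15 types were lower with a median of -0.03. In PF/F, Wls differed by 0.07 in meningeal cells (SE 0.27). In immune cells it was at 157, 211, 151 and 231 CPM, higher in both Tbx1+/- libraries (0.52, SE 0.26).

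Wnt5a differed by -0.16 on the log2 scale in CP3 (SE 0.18). In CP6 it stood at 164, 113, 133 and 117 CPM, with both Tbx1+/- libraries below both WT libraries (-0.39, SE 0.17). In PF/F meningeal cells it differed by 0.42 (SE 0.29), where only the Tbx1+/- library of batch 1 was high. Wnt5b differed by -0.24 in matured osteoblasts/osteocytes (SE 0.19), and by -0.046 to -0.41 with 1 library left out, and by -0.20 in CP1 (SE 0.11). In Purkinje cells it was at 23.2, 13.3, 19.9 and 16.3 CPM, lower in the Tbx1+/- library of each batch (-0.48, SE 0.26).

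Wnt4 differed by 0.04 on the log2 scale in CT2 (SE 0.39) and 0.45 in CP6 (SE 0.40), and in PF/F by 0.10 in meningeal cells (SE 0.29) and 0.33 in astroglia (SE 0.30). Wnt16 differed by -0.09 in CT2 (SE 0.37). In CP3 it was at 15.7, 28.4, 21.3 and 24.9 CPM, higher in the Tbx1+/- library of each batch (0.53, SE 0.29). In Purkinje cells it differed by 0.33 (SE 0.26), and by -0.23 without the 8% of nuclei with most UMIs. Wnt7b differed by 0.24 in CP1 (SE 0.42) and by -0.40 in GABA interneuron progenitors (SE 0.28). Its smallest p was in oligodendrocytes, at 13.6, 8.89, 18.9 and 8.43 CPM, lower in both Tbx1+/- libraries (-0.85, SE 0.36, adjusted p = 1.00).

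Between tissues, the genotype changes of the summed nuclei differed most for Dkk2, by -0.78 on the log2 scale (PTB minus PF/F, SE 0.62, adjusted p = 1.00). For the other 9 members the difference lay between -0.26 for Sfrp1 and 0.12 for Wnt7b.

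The rest of the pathway was read from 71 listed genes, all present in the files. In PTB 58 of them could be tested in 713 gene-by-type tests, and 0 were called by edgeR against the 0% background, with 22 (3.09%, against 1.81% of all PTB tests) at an unadjusted p under 0.05, 9 higher and 13 lower. In PF/F 54 were tested in 465 tests with 0 called, against 0.000598%, and 4 (0.86%, against 1.32% of all PF/F tests) at an unadjusted p under 0.05. DESeq2 also called 0 in each tissue, with 6 in PTB (0.842%, against 0.285%) and 1 in PF/F (0.215%, against 0.115%) at an unadjusted p under 0.05. Among other ligands, Wnt6 was highest in CT2 at 38.8 ± 5.5 CPM, Wnt9a in CT1 at 33.9 ± 11.7 CPM and Wnt2b in CP3 at 32.8 ± 6.9 CPM. Of genes that modify Wnts, Notum, an enzyme that removes their lipid, was highest in CP6 at 122 ± 21.7 CPM, and Porcn, which adds it, in unipolar brush cells at 55.9 ± 4.2 CPM. Among other inhibitors, Dkk1 was highest in matured osteoblasts/osteocytes at 160 ± 68 CPM, and Draxin in GNP at 281 ± 2.4 CPM. Among receptors, Lrp6, the co-receptor bound by Dkk2, was highest in CP5 at 418 ± 12 CPM, and Ror1 in the mixed unipolar brush and granule cell type at 1149 ± 120 CPM. The nuclear partner of β-catenin Lef1 was highest in CP4 at 1193 ± 61 CPM, and the target Axin2 had its highest mean in pericytes at 134 ± 56 CPM, where 3 UMIs correspond to 44.4 to 86.1 CPM. By role, the PTB tests at an unadjusted p under 0.05 were 2 of 38 for other ligands, 1 of 23 for secretion and modification, 3 of 111 for other inhibitors, 5 of 99 for agonists and their receptors, 4 of 211 for receptors, 5 of 178 for cytoplasmic and nuclear parts and 2 of 53 for targets, and none of these groups was tested as a group. With the batch as a block, 50 of the 713 PTB tests (7.01%, against 3.93% of all tests) and 16 of the 465 PF/F tests (3.44%, against 4.28%) had an unadjusted p under 0.05. In PTB 1 test was called, the agonist Rspo2 in CT3, at 41.8, 18.3, 67.9 and 33.5 CPM (-1.10, SE 0.26, adjusted p = 0.0433), against 0.0379% of all tests. Without the block it did not pass.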

How the data were processed

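Nuclei of 8 libraries (10x Genomics 3′ chemistry) were aligned to mm10 with Cell Ranger 7.0.0, introns included. The authors deposited raw UMI counts per gene and barcode, without correction for free RNA, and annotation tables whose cell types were used as given, so nuclei filters are theirs. No doublet removal is stated in the sources used here, and none was added. Counts were summed per library and type and scaled to CPM. Gene coordinates came from GENCODE. Genotypes were compared with edgeR 4.0.16 in R 4.3.3 (filterByExpr, TMM, Benjamini-Hochberg over all genes of a type), with at least 10 nuclei per library. DESeq2 1.42.0 was an alternative. The study's own test took nuclei as replicates. Here n counts libraries. SE is the log2 change divided by the root of F. Same-numbered libraries were taken as 1 batch and deviated together (r = 0.469 over 20250 genes in PTB, 0.538 over 20756 in PF/F), so the number was also fitted as a block. The edgeR and DESeq2 scripts were tested on simulated data. Values printed per member were those of its highest type and of the type with the smallest p in each tissue. The members and gene lists were chosen with earlier results of these data known. Counting error and free RNA limit low levels.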

Additional observations from a re-analysis of the deposited data

Results flagged for a closer look

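Dixon's test was applied to the 4 libraries of each member's highest type in each tissue, 20 groups in all, of which chance flags about 1 in 20. It flagged Wnt5b in matured osteoblasts/osteocytes of PTB, where the WT library of batch 2, at 488 CPM, lay apart from the others at 375 to 383 CPM, a gap of 0.925 of the whole range. It also flagged Wnt5a in meningeal cells of PF/F, where the Tbx1+/- library of batch 1, at 116 CPM, lay apart from 72.0 to 78.1 CPM in the others, a gap of 0.863 of the range.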

How the results depend on the processing

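With 2 libraries a group, 0 members were called in either tissue under every alternative except in PF/F without a filter on low counts, where 1 was called, Dkk2 in meningeal cells (log2 change 3.39, adjusted p = 0.0171), at 1.80, 5.41, 1.98 and 35.95 CPM. Leaving out 1 library called 0 members in each tissue. Over all genes, 0 calls in PTB became 96 without the filter, 71 with the replicate block, and 29 to 613 when 1 library was left out (613 without WT replicate 1, 254 without WT replicate 2, 67 and 29 without Tbx1+/- replicates 1 and 2). In PF/F 1 call became 38 without the filter, 2 by DESeq2, 60 with the replicate block, 0 without the 8% of nuclei with most UMIs, and 21 to 250 with 1 library left out. Of the pathway list in PTB, 0 calls became 1 with the block, and 0 to 4 with 1 library left out: without WT replicate 1, Lgr5 and Rspo2 in CT3, Nkd1 in osteoclasts and Frzb in matured chondrocytes, and without WT replicate 2, Dkk1 in matured osteoblasts/osteocytes. With 1 library left out, that genotype is a single library assumed to vary like the other, so these calls rest on 1 library. The cause was not tested.

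Of 180 alternative genotype changes of members in their highest types, 157 kept their direction, and 7 of 18 changes did so under all. With the block, Wnt4 in CT2 was -0.015 and Dkk3 in CT1 0.00069. With nuclei of at least 2000 genes, Dkk3 in CT1 was 0.0084, Wls in meningeal cells -0.076, Wnt4 in meningeal cells -0.23 and Wif1 in astroglia -0.10. Without the 8% of nuclei with most UMIs, Wnt16 was 0.028 in CT2 and -0.23 in Purkinje cells. With 1 library left out, the change ranged from -0.080 to 0.11 for Wls in osteoblasts, -0.76 to 0.57 for Wnt4 in CT2, -0.38 to 0.043 for Wnt5a in CP3, -0.021 to 0.69 for Wnt7b in CP1, -0.45 to 0.44 for Wnt16 in CT2, -0.11 to 0.061 for Dkk3 in CT1, -0.036 to 0.18 for Wls and -0.12 to 0.38 for Wnt4 in meningeal cells, and -0.21 to 0.47 for Wif1 and -0.12 to 0.078 for Dkk3 in astroglia. For Dkk2 in CT1 it ranged from -0.75 to -0.18. Levels moved beyond 1 SD in 12 cases. Scaled by TMM, Wls in osteoblasts was 961 CPM, Dkk3 in CT1 109 and in astroglia 100.09 CPM. In nuclei of at least 2000 genes, Wif1 in hypertrophic chondrocytes/osteoblasts was 260.2 CPM, Wls and Wnt4 in meningeal cells 361 and 48.3 CPM, Dkk2 in pericytes 0 and Dkk3 in astroglia 81.3 CPM. Without the 8% of nuclei with most UMIs these were 291 CPM for Wif1, 459.7 for Wls, 101.3 for Dkk3, and 28.7 CPM for Wnt16 in Purkinje cells. Among the members the block changed no call.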

Other observations

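The PTB libraries also held barcodes outside the 15 annotated types, of which 4191 to 9183 per library had at least 1000 detected genes. Among those with at least 1000 detected genes, Wnt7b stood at 9.21 to 11.4 CPM (10.2 ± 1.02, SD, n = 4 libraries), above the 5.06 CPM of CP1, its highest annotated PTB type. Sfrp1 stood at 30.9 to 44.0 CPM in these barcodes, close to the 36.5 CPM of CT2. The other 8 members were below their highest annotated type there, Wls at 299 ± 35.8 CPM and Dkk2 at 55.03 ± 15.4 CPM. In PF/F all 10 members were below their highest annotated type in such barcodes. The cell types of these barcodes are not known here.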
